A study of Mus musculus with 7 samples.

Results

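The genes described here encode the proteins of the cytosolic ribosome. Rows of the count table were taken when the gene name was Rpl or Rps followed by a number, with the letter and paralog endings that the family uses, or was Rplp0, Rplp1, Rplp2 or Rpsa, and rows named as pseudogenes with the ending -ps were left out. This gave 86 of the 38293 genes of the table, 34 for the small (40S) and 52 for the large (60S) subunit. The choice rests on names alone and on no measured value. Of the 86, 77 are standard ribosomal protein genes and 9 are paralogs or retrogenes (Rpl3l, Rpl7l1, Rpl10l, Rpl22l1, Rpl36al, Rpl39l, Rps4y2, Rps27l and Rps12l1). Fau and Gnb2l1 (the gene of Rack1) also supply ribosomal proteins, but their names fall outside the rule and they were examined separately.

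RNA was sequenced from scrapings of the ileum, which hold the epithelium and the lamina propria but not the muscle layer. The mice, fasted for 4 h before sacrifice, were males of the C57BL/6NRJ strain, given as 8 weeks of age and housed individually. The paper does not say at which point of the study this age was taken. Every mouse ate a purified, low calcium AIN93-G type diet with 40% of its energy from fat. After 1 week on the control diet they received for 2 weeks either the same diet, with 0.38% cystine in total (normal cys), or a diet with 0.08% cystine in which alanine took the place of the added L-cystine (low cys). There were 4 normal cys libraries (X17SI4, X32SI4, SI9 and X1SI4) and 3 low cys libraries (X23SI4, X26SI4 and X10SI4), with between 14888760 and 22412703 counts each, and the question was whether the ribosomal protein genes differ between the diets. The p-values set a difference between the diets against the spread between these libraries.

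A ribosome is built from ribosomal RNA and one copy of nearly every ribosomal protein, so cells have to make these proteins in matched amounts. Their mRNAs share a start made of pyrimidines, the 5′ terminal oligopyrimidine (TOP) motif, through which the amino acid sensing kinase complex mTORC1 and the RNA binding protein LARP1 set how much of them is translated. Transcription of the genes is raised by MYC, a target of Wnt signalling in the intestinal crypt, where dividing progenitor cells make most of the new ribosomes of the epithelium.

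The TOP motif is a feature of these genes that the rule did not use. In the RefSeq promoter table (GRCm38.p6), 64 of the 86 genes had at least 1 annotated transcription start. In 13 of these (20.3%) such a start was a C followed by at least 4 further C or T bases on the mRNA strand. Of all 27025 genes of this promoter table, 813 (3.01%) had such a run. The following 7 were chosen because their genes are taken up again with their counts, and show 15 bases on each side of the annotated start, with the pyrimidine run in capitals. The lines are in the order Rps6 (chr4:86857353-86857382, minus strand), Rps27 (chr3:90213634-90213663, minus strand), Rps21 (chr2:180257364-180257393, plus strand), Rplp2 (chr7:141447636-141447665, plus strand), Rpl15 (chr14:18270972-18271001, minus strand), Rpl28 (chr7:4792950-4792979, plus strand) and Rpl38 (chr11:114668565-114668594, plus strand).
Rps6: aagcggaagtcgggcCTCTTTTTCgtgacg
Rps27: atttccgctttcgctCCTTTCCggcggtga
Rps21: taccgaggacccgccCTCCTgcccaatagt
Rplp2: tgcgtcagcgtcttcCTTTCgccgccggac
Rpl15: gtgggagaaagccttCTTCCTTTCCTCTgg
Rpl28: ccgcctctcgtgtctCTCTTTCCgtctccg
Rpl38: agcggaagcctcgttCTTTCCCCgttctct
The run of Rpl15 was 13 bases long and those of Rps21 and Rplp2 were 5 bases long. A start that is annotated a few bases away from the one in use misses the motif, so the genes without a match were not called different from those with one.

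Of the 86 genes, 83 had enough counts to be tested, with 502 to 18893 counts in a library. Rpl3l, a paralog of striated muscle, and Rpl10l, a testis paralog, had 0 counts in all 7 libraries, which allows up to 3 counts in a library, or 0.134 to 0.201 counts per 1000000 (CPM). Rpl39l, another testis paralog, had 2 counts, both in X26SI4. Together the 86 genes took 1.29% to 2.73% of the counts of a library.

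The levels of the genes were compared per length, as mean CPM over the 7 libraries per kilobase of mRNA. Rpl41, which encodes a very short protein of the large subunit, was highest with 1184, followed by the stalk protein gene Rplp1 with 777, Rps29 with 724, Rps12 with 617 and Rpl10 with 613. The lowest tested genes were the paralog Rpl7l1 with 14.96, Rps15a with 27.4, the retrogene Rps4y2 with 40.8, Rpl22 with 52.9 and Rps20 with 71.3. The order depends on the length used. With the coding length in place of the mRNA length, 4 of the 5 highest and 2 of the 5 lowest genes were shared, and with the exon length given beside the counts these were 2 and 4. Rps15a and Rps20 have long annotated mRNAs, which lowers their level on this scale.

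No ribosomal protein gene passed the test between the diets. Of the 83 genes, 0 had an adjusted p-value under 0.05 in edgeR's quasi-likelihood test (0.0% of all 14869 genes tested) and 0 had an unadjusted p-value under 0.05, where 5.49% of all genes tested did. DESeq2 and limma-voom also gave 0 of the 83 at either level. The diets overlapped in all 83 genes, whereas among all genes tested every low cys library was above every normal cys library in 3.32% and below in 3.51%, or 6.83% together. The smallest unadjusted p-value was 0.199 and the smallest adjusted p-value (edgeR) was 0.798.

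The estimates nevertheless leaned to one side. In 79 of the 83 genes (95.2%) the estimate was higher on the low cys diet, against 51.2% of all genes tested, and the median log2 fold change was 0.15, a fold of 1.11, against 0.01 over all genes. The range ran from -0.05 in Rpl41 to 0.29 in Rps2, with standard errors from 0.11 to 0.30. The genes vary together between mice, so 79 of 83 does not stand for 83 separate observations. It rested on 1 mouse: without the normal cys library X1SI4, 37 of 83 estimates were higher and the median was -0.01. Without X23SI4, the low cys library with the highest levels, the median was 0.07, and without X32SI4, the normal cys library with the highest levels, it was 0.31.

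Every one of the 83 confidence intervals (95%) included 0. They reached from -0.59 at the lowest to 0.91 at the highest on the log2 scale, so that none included a doubling or a halving of expression. Differences within these intervals could not be told from 0 with 4 and 3 libraries. In this bulk RNA, fewer cells of a kind and less RNA per cell cannot be told apart.

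**Figure D1:**
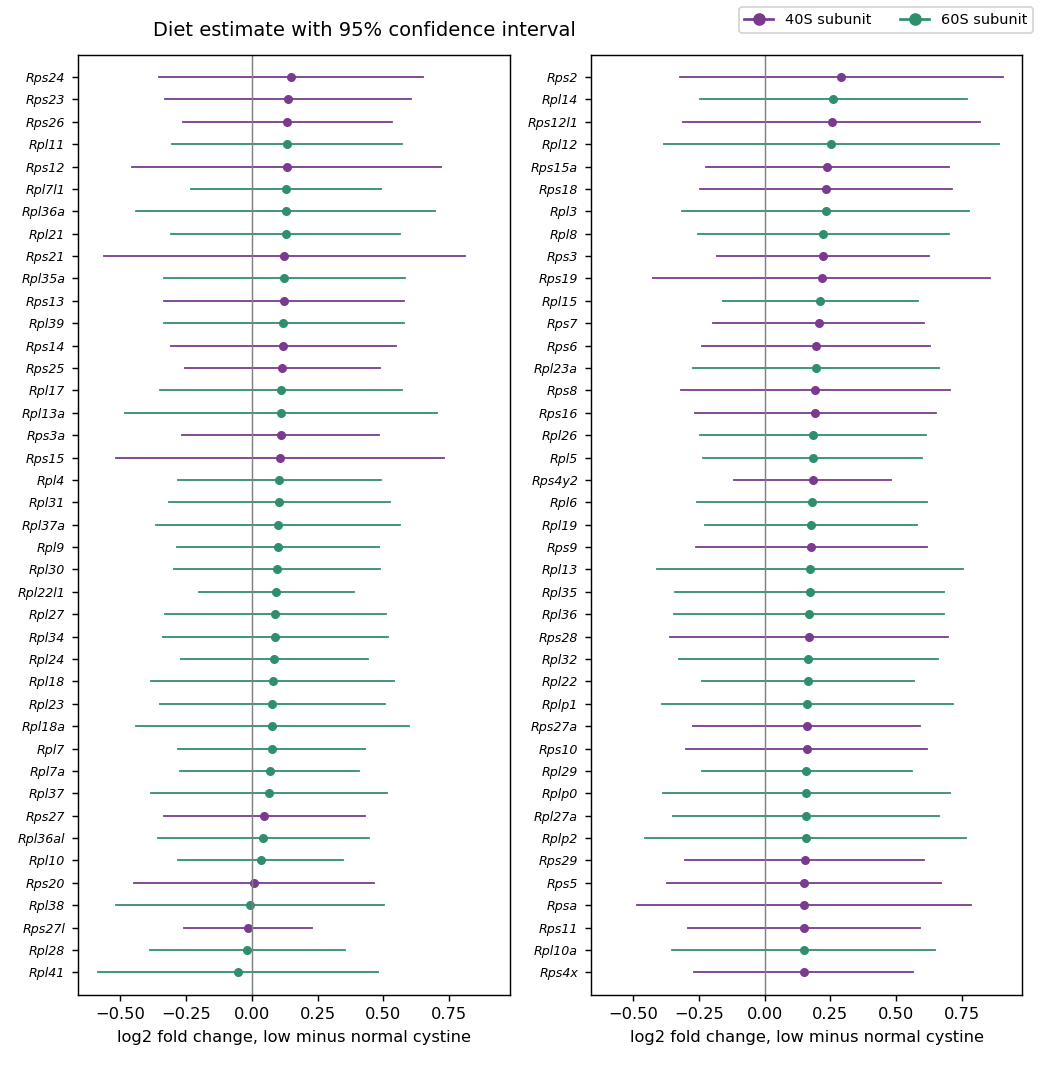
Log2 fold change between the diets (horizontal axis, low minus normal cystine) for the tested genes (vertical axis), sorted from the lowest at the bottom left to the highest at the top right. Points are edgeR estimates, lines are 95% confidence intervals and colours give the subunit. Every line shown crosses 0, and most points lie to the right of it; of all 83 estimates 79 were positive, and 37 were when X1SI4 was left out.

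The main pattern in these genes was a common shift from mouse to mouse. For each gene the log2 CPM in a library was compared with the gene's own mean over the 7 libraries. X1SI4 (normal cys) was the lowest of the 7 libraries in 81 of the 83 genes, against 24.9% of all genes tested, and its median deviation was -0.59. X32SI4 (normal cys) was the highest library in 57 genes (14% of all genes tested), with a median deviation of 0.30.

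The low cys library X23SI4 was highest in 23 genes (18% of all genes tested), with a median deviation of 0.25. The other libraries lay near the mean, with median deviations of -0.05 in X17SI4, 0.03 in SI9, -0.04 in X26SI4 and 0.08 in X10SI4. All 83 genes were above their own mean in X32SI4 and in X23SI4, and 0 were in X1SI4. Both the highest and the lowest of the 7 mice by this measure were thus on the normal cys diet.

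Within a library the 83 genes kept close together. The SD of the deviations over the genes was between 0.06 and 0.19, and over all genes tested it was between 0.33 and 0.58. The size of the change between mice was near that over all genes tested. The highest library exceeded the lowest by 1.86-fold in the median ribosomal protein gene and by 1.80-fold in the median of all genes tested. In both comparisons all genes tested include genes with far fewer counts, whose counting error widens their spread. Genes of like level were not compared.

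**Figure D2:**
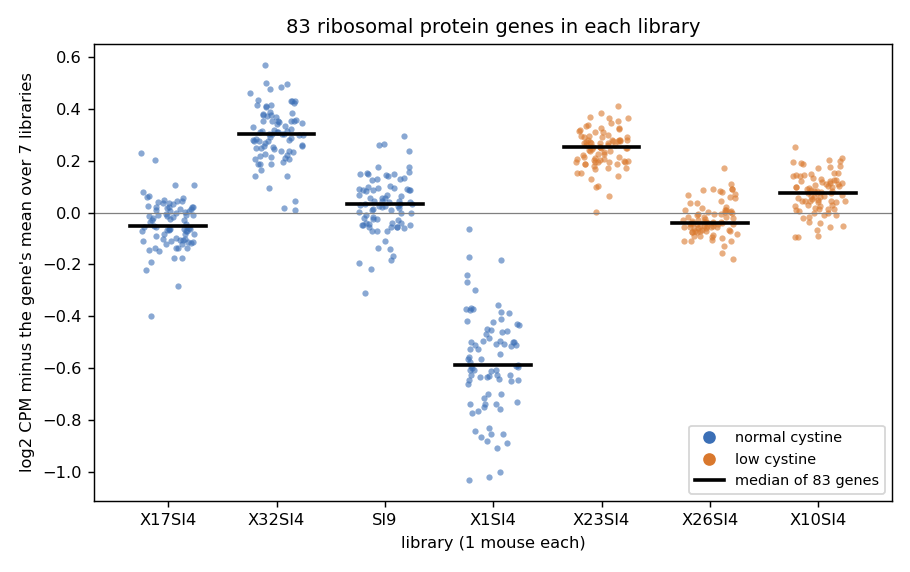
Deviation of each of the 83 genes in each library (log2 CPM minus the gene's mean over 7 libraries, vertical axis; 7 libraries on the horizontal axis), with 1 point per gene, a black line at the median and colours for the diet. X1SI4 sits lowest with a median of -0.59 and X32SI4 highest with 0.30, both on the normal cystine diet.

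The share of all counts, taken without the TMM scaling used for CPM, also put X1SI4 lowest and X23SI4 and X32SI4 highest. The TMM factors were 0.90 to 1.03 in the normal cys and 1.02 to 1.12 in the low cys libraries. A higher factor lowers the CPM of every gene in a library, so the share carries a diet difference common to all genes that CPM do not. Ribosomal protein genes took 1.94% of the counts in X17SI4, 2.63% in X32SI4, 1.88% in SI9 and 1.29% in X1SI4 on the normal cys diet. On the low cys diet they took 2.73% in X23SI4, 2.04% in X26SI4 and 2.26% in X10SI4. The groups overlapped, with 1.93% ± 0.548 (SD, n = 4) and 2.34% ± 0.351 (SD, n = 3). The difference of 0.41 percentage points was 0.196 without X1SI4, 0.218 without X23SI4 and 0.642 without X32SI4.

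The 2 subunits were also compared within each library, as the log2 ratio of summed 60S counts to summed 40S counts. It was 0.568 in X17SI4, 0.558 in X32SI4, 0.563 in SI9 and 0.623 in X1SI4. In the low cys libraries it was 0.541 in X23SI4, 0.537 in X26SI4 and 0.537 in X10SI4. The groups did not overlap, with 0.578 ± 0.0303 (SD, n = 4) against 0.538 ± 0.0026 (SD, n = 3), and the difference of -0.0396 is small beside the shifts between mice. It was -0.0246 without X1SI4 and -0.0250 without the 5 genes with the most counts. No p-value was computed for this value over chosen genes. The groups overlapped when each gene had the same weight (mean log2 CPM of the 60S genes minus that of the 40S genes).

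By that equal weighting X17SI4 had 0.018, X32SI4 -0.016, SI9 -0.030 and X1SI4 0.022, and X23SI4 had -0.025, X26SI4 -0.041 and X10SI4 -0.038. Summed levels of stroma markers also separated the diets, at 4.11 to 8.93 CPM on the normal cys diet and 11.8 to 18.6 CPM on the low cys diet. Those of B and plasma cells did so at 151 to 555 against 675 to 998 CPM, and those of endothelium at 5.78 to 7.88 against 8.31 to 11.7 CPM. All 6, 6 and 4 genes of these lists had counts. Of the 5 exocrine pancreas markers 3 had counts, Prss2 and Pnlip were at 0, and only Cela1 was tested. Their sum separated the diets the other way, at 4.49 to 5.31 against 3.67 to 4.25 CPM. Nearly all of it came from Cela1, at 4.49 to 5.31 against 3.47 to 4.25 CPM, so it describes 1 gene. The sums of all other marker lists overlapped between the diets. The part of any of these cells in the ratio was not tested. For each subunit as a whole, 33 of 34 40S genes had a higher estimate with a median log2 fold change of 0.15, and 46 of 49 60S genes with a median of 0.13, and without X1SI4 these medians were 0.01 (20 of 34 higher) and -0.01 (17 of 49 higher).

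**Figure D3:**
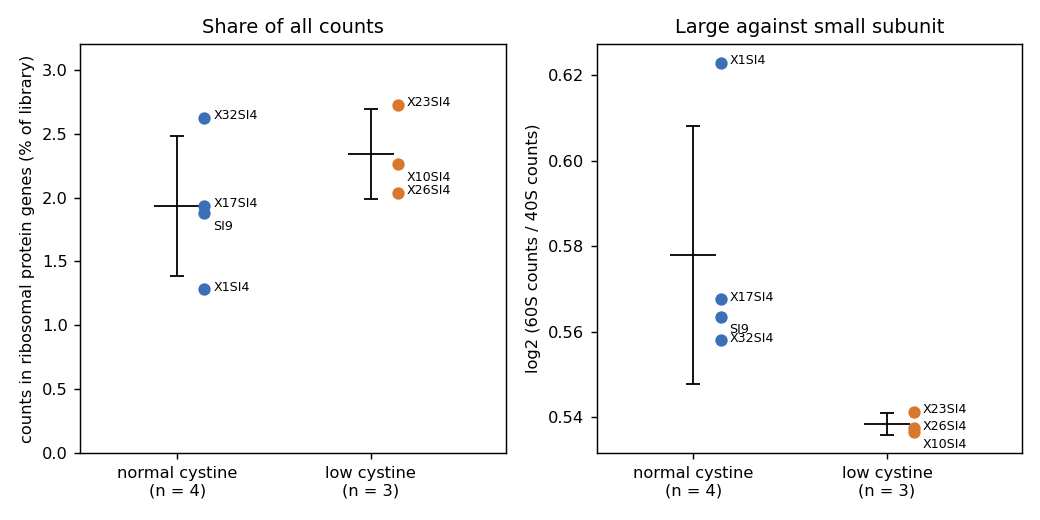
Share of all counts in ribosomal protein genes (left, %) and log2 ratio of 60S to 40S counts (right) for each library, with mean ± SD per diet. The shares overlap (1.29% to 2.63% against 2.04% to 2.73%), and the ratios lie at 0.558 or above in the 4 normal cys and at 0.541 or below in the 3 low cys libraries, on an axis that does not start at 0.

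The P stalk is the part of the large subunit that recruits translation factors, with Rplp0 as its base, Rplp1 and Rplp2 as its arms and Rpl12 beside it. Rplp0 was measured at 652, 841, 604 and 383 CPM in X17SI4, X32SI4, SI9 and X1SI4, and at 771, 618 and 687 CPM in X23SI4, X26SI4 and X10SI4. Rplp2 had 172, 267, 211 and 103 CPM in the same normal cys libraries and 216, 201 and 212 CPM in the low cys libraries. Both genes were lowest in X1SI4 and highest in X32SI4, so the low cys values lay inside the normal cys range.

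The log2 fold changes of the 4 stalk genes were between 0.16 and 0.25, with a smallest unadjusted p-value of 0.39 in edgeR. X1SI4 had a median deviation of -0.81 in these genes, further from the mean than in the 83 genes together. Rpl12 spanned 2.71-fold between its lowest and highest library. Rplp1 shares more than 50% of its 50-base stretches, the length of the reads, with other genes, so its counts are less certain.

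Rpl5 and Rpl11 bind 5S ribosomal RNA, and when ribosome assembly fails this particle binds MDM2 and stabilizes p53. Rpl5 was at 380, 464, 380 and 286 CPM in X17SI4, X32SI4, SI9 and X1SI4, and at 500, 380 and 406 CPM in X23SI4, X26SI4 and X10SI4. Its log2 fold change was 0.18 ± 0.18 (SE, n = 4 and 3, adjusted p = 0.822 in edgeR). Rpl11 differed by 0.13 ± 0.19 (SE, adjusted p = 0.862 in edgeR), and for both genes the diets overlapped.

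Rps19 is the gene first tied to Diamond-Blackfan anemia, a failure of red cell formation. It had 205, 270, 215 and 99.4 CPM in X17SI4, X32SI4, SI9 and X1SI4, and 252, 216 and 221 CPM in X23SI4, X26SI4 and X10SI4. X1SI4 stood below the other 6 libraries, and these overlapped between the diets.

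The 8 proteins around the exit of the peptide tunnel and the 14 of the head and beak of the small subunit gave like values. The tunnel exit genes had log2 fold changes from 0.11 to 0.20 and the head and beak genes from 0.01 to 0.23, and 0 of either had an unadjusted p-value under 0.05. Rps27a, made as a fusion of ubiquitin with a small subunit protein, had 210, 254, 211 and 141 CPM on the normal cys diet and 251, 210 and 223 CPM on the low cys diet, in the order of libraries above. Its log2 fold change was 0.16 ± 0.19 (SE, adjusted p = 0.839 in edgeR).

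Rps6, whose protein is phosphorylated by the S6 kinases below mTORC1, is among the genes with the pyrimidine run shown above. It had 294, 355, 282 and 202 CPM on the normal cys diet and 363, 289 and 322 CPM on the low cys diet, and Rpl15, with the run of 13 bases, ranged from 172 CPM in X1SI4 to 288 CPM in X23SI4. Of the others shown there, Rps21 had the widest span of the 83 genes, 2.97-fold, from 51.2 CPM in X1SI4 to 152 CPM in X32SI4. Rpl28 and Rpl38 were 2 of the 4 genes with a negative estimate, with log2 fold changes of -0.02 and -0.01. Rpl28 had 326, 377, 350 and 248 CPM on the normal cys diet and 351, 306 and 307 CPM on the low cys diet, so that X1SI4 was again the lowest library.

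The 5 tested paralogs spanned from 1.14-fold (Rps27l) to 1.68-fold (Rpl36al) between their lowest and highest library, below the median of 1.86-fold, and the retrogene Rps12l1, which shares all of its 50-base stretches with other genes, spanned 2.25-fold. Rps27l, a p53 target related to Rps27, had 79.2, 80.4, 85.2 and 76.3 CPM in X17SI4, X32SI4, SI9 and X1SI4, and 83.3, 80.0 and 74.9 CPM in X23SI4, X26SI4 and X10SI4. Its span was the narrowest of the 83 genes, and Rps27 spanned 1.52-fold. Its lowest library was X10SI4, and it was 1 of the 2 genes that were not lowest in X1SI4.

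The other was Rps4y2, with 26.23, 32.98, 33.96 and 28.38 CPM on the normal cys diet and 32.04, 34.50 and 36.99 CPM on the low cys diet, lowest in X17SI4. Its log2 fold change of 0.18 ± 0.13 (SE) had the smallest p-value of the 83 genes and an adjusted p of 0.798 in edgeR. With the counts scaled by library size alone its unadjusted p-value in edgeR was 0.0408, a setting under which the median of all genes also lay 0.15 higher on the low cys diet. GENCODE M21 annotates the row as a transcribed processed pseudogene (Rps4l).

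Rpl22l1, the paralog of Rpl22, had 44.7, 44.0, 44.2 and 36.7 CPM on the normal cys diet and 51.7, 42.2 and 41.8 CPM on the low cys diet. X17SI4, X32SI4 and SI9 lay within 1 CPM of each other and X1SI4 lay below them. Over the 5 tested paralogs (Rpl7l1, Rpl22l1, Rpl36al, Rps4y2 and Rps27l) the median deviation of X1SI4 was -0.24, against -0.59 over all 83 genes, and 3 of the 5 were lowest there.

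The ratio of a paralog to its parent gene within a library does not depend on library size. Rpl7l1 had 10.3 counts for every 100 of Rpl7, Rpl22l1 40.2 for 100 of Rpl22, Rps27l 40.8 for 100 of Rps27 and Rpl36al 87.0 for 100 of Rpl36a. Between the diets the log2 ratio differed by 0.064 in Rpl7l1 (p = 0.629), by -0.086 in Rpl22l1 (p = 0.486), by -0.115 in Rpl36al (p = 0.486) and by -0.071 in Rps27l (p = 0.686), by an exact two-sided permutation test, whose smallest possible p is 0.0286. The 4 adjusted p-values of this exact test were 0.686, and in all 4 pairs the diets overlapped. The ratio of Rps4y2 to Rps4x was not tested, because the pair was listed under the name Rps4l, which no row carries.

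**Figure D4:**
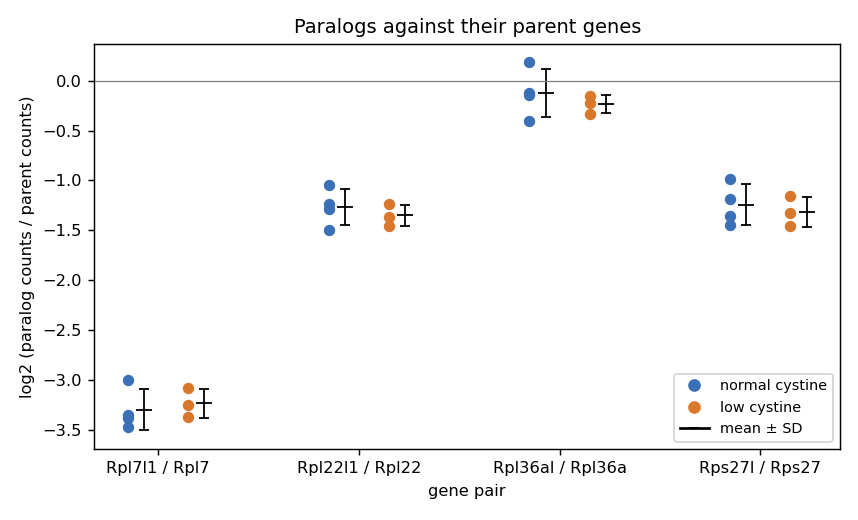
Log2 ratio of paralog to parent counts (vertical axis) for 4 gene pairs (horizontal axis), 1 point per library, with mean ± SD per diet. The diets overlap in every pair, and the mean ratios run from -3.30 for Rpl7l1 to -0.12 for Rpl36al on the normal cystine diet.

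Of these genes outside the naming rule, Fau had 371, 582, 611 and 437 CPM in X17SI4, X32SI4, SI9 and X1SI4, and 433, 457 and 459 CPM in X23SI4, X26SI4 and X10SI4. Its estimate was -0.15 ± 0.19 (SE, adjusted p = 0.846 in edgeR), and its lowest library was X17SI4. Gnb2l1 ranged from 255 CPM in X1SI4 to 510 CPM in X23SI4, with an estimate of 0.22 ± 0.22 (SE, adjusted p = 0.823 in edgeR).

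Factors that work with the ribosome gave few low p-values and none after adjustment. Among 7 elongation factor genes 1 had an unadjusted p-value under 0.05 and was higher on the low cys diet (2.66% of all genes tested), Eef1e1, a scaffold of the tRNA synthetase complex, by 0.64 on the log2 scale. Among 35 initiation factor genes 1 was higher and 1 lower (2.83% of all genes tested were lower). Eif1ax, a start codon scanning factor, was higher by 0.42, and Eif6, which keeps the 60S subunit from joining, was lower with -0.37, each with an adjusted p of 0.794 in edgeR.

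Eif1ax had 28.2, 26.1, 24.7 and 27.9 CPM on the normal cys diet and 40.4, 30.4 and 36.5 CPM on the low cys diet. Here every low cys library was above every normal cys library (3.32% of all genes tested), and X1SI4 was not low. Of 8 further mRNAs with a TOP motif, such as Tpt1 and Pabpc1, 0 had an unadjusted p-value under 0.05, with a median log2 fold change of 0.20.

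Ribosome biogenesis genes, which make and process ribosomal RNA and assemble the subunits, had 3 of 102 genes higher and 1 lower at an unadjusted p-value under 0.05, near the shares of 2.66% and 2.83% over all genes tested. These 4 became 0 without SI9 or without X23SI4 and 16 without X17SI4. The 3 higher genes were Mphosph10 (0.63), Utp6 (0.32) and Noc3l (0.61), all nucleolar processing factors, and the lower one was Eftud1 (-0.39), which removes Eif6 from the 60S subunit. In 85 of the 102 the estimate was higher (51.2% of all genes tested), with a median log2 fold change of 0.24. In 53 of the 102 X1SI4 was the lowest library (24.9% of all genes tested), with a median deviation of -0.40.

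Among 79 mitochondrial ribosomal protein genes 0 had an unadjusted p-value under 0.05, and the median log2 fold change was 0.07. X1SI4 was the lowest library in 51 of the 79 (24.9% of all genes tested), with a median deviation of -0.305. It was also the lowest in 6 of the 7 elongation factor genes (median deviation -0.511) and in 12 of the 35 initiation factor genes (-0.119). The 29 genes of mTORC1 and of TOP mRNA control had 0 at an unadjusted p-value under 0.05, with a median log2 fold change of -0.01. Their median deviation was 0.01 in X1SI4, where the ribosomal protein genes had -0.59. Of 14 MYC network and nucleolar stress genes 0 were higher and 2 lower (2.66% and 2.83% of all genes tested), the MYC antagonist Mxd1 with -0.52 and the p53 ligase Mdm2 with -0.34, each with an adjusted p of 0.794 in edgeR. These 2 became 0 without X23SI4 or without X10SI4 and 4 without X32SI4. Myc itself had a higher estimate on the low cys diet, 0.74 ± 0.44 (SE, adjusted p = 0.794 in edgeR). Its means were 4.52 CPM on the normal cys and 7.53 CPM on the low cys diet, and the diets overlapped. Over all the pathway lists 9 of 277 genes tested (3.25%) had an unadjusted p-value under 0.05, against 5.49% of all genes tested, and the number depended on single mice, with 0 genes without X23SI4, 4 without SI9, 5 without X10SI4, 17 without X26SI4 and 31 without X17SI4.

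Markers of the cells in the scrapings also differed between mice. Proliferation and Paneth cell markers were low in X1SI4 and high in X23SI4, as the ribosomal protein genes were, but other libraries departed from this. Proliferation markers (10 of 10 with counts) summed to 145 to 377 CPM on the normal cys diet and 235 to 429 CPM on the low cys diet, lowest in X1SI4 and highest in X23SI4. Paneth cell markers (5 of 5) summed to 480 CPM in X1SI4 and to 1584 to 3532 CPM elsewhere. Enterocyte markers (7 of 7) were highest in SI9 (46190 CPM) and X1SI4 (44770 CPM) and lowest in X23SI4 (11780 CPM).

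X32SI4, with the highest ribosomal protein levels, had a median deviation of 0.21 in proliferation markers and -0.12 in Paneth cell markers. X17SI4, X10SI4 and SI9 had 0.58, 0.59 and -0.62 in proliferation markers while their ribosomal protein genes lay near the mean. Mitochondrially encoded genes took 6.08% to 10.98% of the counts, with 6.77% in X1SI4. The part of cell composition in the shift of the ribosomal protein genes was not tested. The ileal markers Fabp6, Slc10a2, Slc51a and Slc51b were present in every library at 4342 to 9285 CPM in sum.

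**Figure D5:**
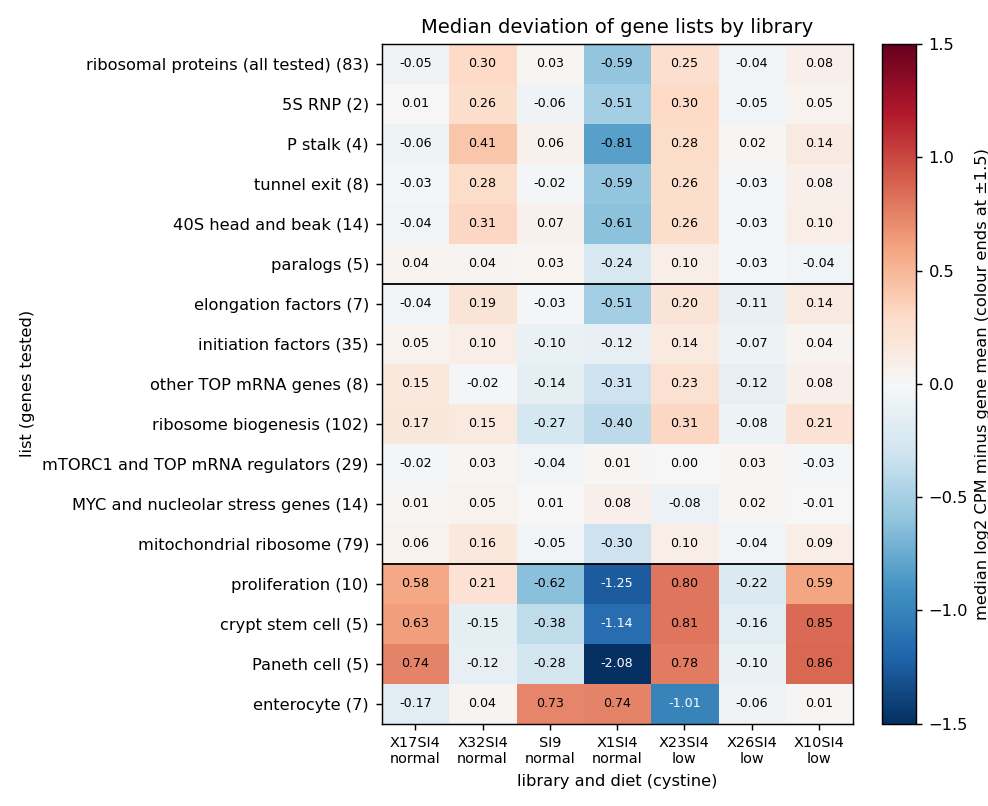
Median deviation of each gene list (rows, with the number of genes tested) in each library (columns, with the diet), as log2 CPM minus the gene's mean over the 7 libraries; red is above and blue below the mean. X1SI4 is at -0.59 for ribosomal proteins, -0.40 for ribosome biogenesis and -1.25 for proliferation, and at 0.01 for mTORC1 genes.

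Sequence sharing limits how exactly single genes are counted. A median of 20.4% of the 50-base stretches of a ribosomal protein gene also occurred in transcripts of another gene, 83 of the 86 genes shared stretches with an annotated pseudogene, and 7 shared more than 50%, with Rps12l1 (100%), Rpl36 (81.1%) and Rps3a (71.0%) at the top. The 219 rows of ribosomal protein pseudogenes named with -ps held 26.7 to 29.4 counts for every 100 counts of the 86 genes, and this proportion overlapped between the diets. The row named Rpl24 spans Rpl24 (chr16:55966275-55971435, GRCm38, plus strand) and its neighbour Zbtb11 (chr16:55973883-56008913, plus strand), so its counts mix both genes. Without these 7 genes, which include the Rpl24 row and the pseudogene Rps12l1, and without Rps4y2, a selection made after the data were seen, the median log2 fold change was 0.14.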

How the data were processed

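Poly(A) RNA of 7 ileal scrapings was sequenced from stranded libraries in paired 50-base reads. The authors removed ribosomal RNA reads, aligned the rest to GRCm38 with STAR, counted reads on exons with featureCounts (Ensembl annotation) and deposited raw counts per gene, without normalization. How strand and multiply mapped reads were treated in counting is not given in the sources used here. Groups came from the treatment labels. Nothing in the labels names a batch.

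Genes were filtered with filterByExpr (minimum count 10, minimum total 15), scaled by TMM and compared over all 14869 genes by the quasi-likelihood test of edgeR 4.0.16 with robust dispersions (R 4.3.3), with Benjamini-Hochberg adjustment and no covariate. CPM are per 1000000 TMM-scaled counts, and log2 CPM used a prior count of 2. Between mice of 1 diet, expression varied by 25.5% (biological coefficient of variation). Alternatives used DESeq2 1.42.0, limma-voom (limma 3.58.1), other scalings and filters, and left out each library in turn. The edgeR script was tested on simulated data. Paralog ratios used a pseudocount of 0.5 and the exact permutation test. mRNA lengths, gene types and shared 50-base stretches came from GENCODE M21 (GRCm38), to which all 86 genes were matched. The mRNA length was that of the shortest coding transcript with a RefSeq match among the best annotated ones, a choice made after lengths were seen.

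The genes, lists, tests and alternatives were chosen with earlier results of these data known. Genes are named by role, by the 5 highest and 5 lowest levels per length, and as paralogs with their parents, and in other lists when the unadjusted p-value was under 0.05. Rps2, Rps6, Rps19, Rps21, Rpl15, Rpl28 and Rpl38 were named for a motif, a span or an estimate after their values were seen. Zbtb11 was named because it shares a row with Rpl24, and Myc for its role, after its values were seen. Authors' comparisons were not among the files. A few genes are counted in the totals but not reported here by name. Counting error and the spread between 4 and 3 mice set the precision.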

Additional observations from a re-analysis of the deposited data

Results flagged for a closer look

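Of 47 values examined among the 4 normal cys libraries, 3 had a library whose gap to the next was large for the range of the 4 (above Dixon's 95% critical value for 4 values), where chance gives about 1 in 20, or 2.35. All 3 were X1SI4. Its log2 ratio of 60S to 40S counts was 0.623 and lay above the other normal cys libraries, with a gap of 0.852 of the range. Its log2 CPM of Rpl22l1 was 5.203 and lay below the others (gap 0.918). Its median deviation over the 5 tested paralogs was -0.24 and also lay below (gap 0.951). In X1SI4 this median is the deviation of Rpl22l1 itself, so the last 2 flags are not separate. Many of the 47 values are of genes that vary together, so 3 against 2.35 is not a test.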

How the results depend on the processing

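No paired analysis was possible because the labels give the mice no shared replicate numbers. In every alternative 0 ribosomal protein genes had an adjusted p-value under 0.05. Without adjustment, 0 had a p-value under 0.05 in the reported analysis, 1 with library size only (Rps4y2), and 0 to 1 when 1 library was left out (Rpl14 without X32SI4). Over all genes DESeq2 called 16 genes at an adjusted p-value under 0.05, against 0 in edgeR (817 at an unadjusted p-value), and leaving out 1 library gave 0 to 1 such genes and 258 to 1763 at the unadjusted level. The median log2 fold change of the ribosomal protein genes was positive in each tool, scaling and filter (0.132 to 0.284), and ran from -0.007 without X1SI4 to 0.306 without X32SI4. The number of positive estimates ran from 37 without X1SI4 to 83. For the pathway lists together, 9 genes had an unadjusted p-value under 0.05, 17 with library size only, and 0 (without X23SI4) to 31 (without X17SI4) when 1 library was left out. The difference in log2 ratio to the parent reversed for Rpl7l1 (range -0.012 to 0.164 when 1 library was left out) and for Rps27l (-0.149 to 0.016). The log2 60S to 40S difference stayed negative in all its alternatives. The difference in the share of counts, which is without TMM scaling, stayed positive. Of 375 alternative estimates for 25 named genes 28 had the opposite sign, 12 of them without X1SI4. The estimate of Rpl41 was 0.089 and that of Rps27l 0.132 with library size only, and that of Rps20 -0.008 with no filter. When 1 library was left out, the log2 fold changes ran, by gene, over Rpl41 -0.218 to 0.114, Rplp1 -0.012 to 0.364, Rps12 -0.068 to 0.333, Rpl10 -0.019 to 0.114, Rps20 -0.132 to 0.171, Rpl11 -0.008 to 0.273, Rplp0 -0.014 to 0.359, Rplp2 -0.047 to 0.389, Rpl22l1 -0.004 to 0.164, Rpl36al -0.090 to 0.155, Rps27l -0.041 to 0.023, Rpl7 -0.007 to 0.194, Rpl36a -0.069 to 0.234, Rpl39 -0.034 to 0.274 and Rps27 -0.057 to 0.140. The cause of these changes was not tested beyond the library left out. Each tested ribosomal protein gene had 502 or more counts in each library, while some pathway genes had only a few CPM and larger counting error.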
